A study of Mus musculus with 9 samples.

Results

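In the mouse, 9 Sox genes other than *Sox10* were followed from the periocular neural crest into the embryonic cornea. They were *Sox2*, *Sox4*, *Sox5*, *Sox6*, *Sox8*, *Sox9*, *Sox11*, *Sox12* and *Sox13*, chosen by name, and all 9 were found by Entrez Gene identifier among the 19369 genes listed in the samples. The choice leaves out *Sox10*, the marker of the glial and pigment branches of the neural crest, but RNA from whole tissue does not show which cells held a transcript, so the lineage of the 9 genes could not be checked. *Sox8* and *Sox9* belong to the same SoxE subgroup as *Sox10*.

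The samples came from wild-type C57BL/6 embryos, with 3 replicates at each of 3 embryonic stages. At E10.5 the sample was periocular neural crest (pNC), the migratory mesenchyme around the early eye, after dispase treatment and removal of ectoderm, lens vesicle and optic cup. At E14.5 and E16.5 it was the whole cornea. The study places E14.5 at the differentiation of the epithelium and the crest-derived mesenchyme, and E16.5 after epithelium, stroma and endothelium had formed. Each sample pooled several eyes or corneas, in numbers that differed between stages, and no genotype or experimental treatment was compared. The dispase step and the removal of the ectoderm were applied to the E10.5 tissue alone, so neither can be told apart from the stage.

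Sox proteins bind the minor groove of DNA through an HMG box and bend it, and they are sorted into subgroups by the likeness of that box. SoxB1 proteins such as Sox2 maintain progenitors of the neural tube, retina and lens. SoxC proteins are activators found in many progenitors, neural crest mesenchyme included. SoxD proteins have no activation domain of their own and act with partners, among them the SoxE proteins, which specify neural crest, glia and cartilage.

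For each gene 60 bases at the start of the HMG box are shown, because the subgroups are defined on the box and because reads could be shared between the genes there. They were read from GENCODE M21 transcripts on GRCm38, are written 5′ to 3′ along the gene's own strand, and each lies within 1 exon. Capitals mark the 27 bases identical in all 9 genes. The stretch was found by its opening residues, RPMNAFM, so part of this likeness was fixed by the search. *Sox2* is at chr3:34650548-34650607 on the plus strand, *Sox4* at chr13:28952782-28952841, *Sox11* at chr12:27342199-27342258, *Sox12* at chr2:152397516-152397575, *Sox5* at chr6:143841214-143841273, *Sox6* at chr7:115489703-115489762, *Sox13* at chr1:133385506-133385565 and *Sox8* at chr17:25570163-25570222, all 7 on the minus strand, and *Sox9* at chr11:112782903-112782962 on the plus strand.
Sox2 (SoxB1): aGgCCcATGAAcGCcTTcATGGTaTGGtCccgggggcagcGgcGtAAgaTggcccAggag
Sox4 (SoxC): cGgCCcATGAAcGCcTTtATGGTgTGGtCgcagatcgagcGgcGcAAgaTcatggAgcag
Sox11 (SoxC): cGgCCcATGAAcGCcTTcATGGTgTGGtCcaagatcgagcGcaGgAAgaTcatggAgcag
Sox12 (SoxC): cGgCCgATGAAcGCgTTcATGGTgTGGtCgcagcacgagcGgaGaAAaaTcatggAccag
Sox5 (SoxD): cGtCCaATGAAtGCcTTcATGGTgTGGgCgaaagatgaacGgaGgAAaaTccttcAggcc
Sox6 (SoxD): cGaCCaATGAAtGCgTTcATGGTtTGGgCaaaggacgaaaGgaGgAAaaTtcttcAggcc
Sox13 (SoxD): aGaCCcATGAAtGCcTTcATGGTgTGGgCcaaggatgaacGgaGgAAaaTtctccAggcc
Sox8 (SoxE): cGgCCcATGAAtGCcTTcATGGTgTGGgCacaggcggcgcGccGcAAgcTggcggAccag
Sox9 (SoxE): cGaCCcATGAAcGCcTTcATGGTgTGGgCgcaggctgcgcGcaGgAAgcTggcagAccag

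Over the 70 codons compared, the encoded residues were 87.1% to 98.6% identical in the 7 pairs of genes of the same subgroup. In the 29 pairs from different subgroups they were 48.6% to 67.1% identical. *Sox8* and *Sox9* were the closest pair, at 98.6%, and *Sox4* and *Sox11* shared 94.3%. The longest exact run of bases shared by transcripts of any pair was 48 bases, between *Sox4* and *Sox11*, and between subgroups it was at most 27 bases. Reads that fit several genes are divided between them by estimation in RSEM.

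Levels are given as FPKM, fragments per kilobase of transcript, scaled to the mapped fragments of the sample, as deposited. FPKM is scaled to length, so levels of different genes can be set side by side as far as the lengths used are right. For *Sox4* the files use a shorter transcript than GENCODE M21, and its FPKM relative to the other genes depends on that choice. Changes between stages were tested on the deposited expected counts by edgeR, with p-values adjusted by the Benjamini-Hochberg method over the 14771 genes tested. A gene was said to rise or fall when its adjusted p was under 0.05 and its log2 fold change was at least 1 in size. The log2 fold changes use edgeR's TMM scaling of the libraries. The standard error (SE) beside them was derived as the size of the log2 fold change over the square root of the F statistic of the edgeR test. Scaling by library totals, as FPKM does, shifts the median of all genes by -0.15 from E10.5 to E16.5 and by -0.16 from E14.5 to E16.5, and moves ratios of FPKM alike. The p-values measure the spread of pooled samples of 3 per stage. In whole tissue, fewer cells of a type and less RNA per cell cannot be told apart.

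Totals of expected counts lay between 8745161 and 9069023 per sample. The crest mesenchyme markers *Twist1*, *Prrx1*, *Pdgfra* and *Foxc1* summed to 249 to 293 FPKM at E10.5. The keratocyte markers *Kera*, *Lum* and *Dcn* and the epithelial markers summed higher in every corneal sample than in every E10.5 sample. Among the epithelial markers, *Krt12* was uneven at E14.5, at 102, 0.62 and 2.06 FPKM in replicates 1 to 3. At E16.5 *Krt12* stood at 989.7, 653 and 592 FPKM. One library stood apart. E14.5 replicate 1 correlated with the E16.5 samples at a mean r of 0.962, against 0.918 and 0.926 for the other E14.5 samples, and less with the E10.5 samples (0.842 against 0.897 and 0.89), across 14304 genes, which are not independent replicates. Its summed keratocyte markers were 3719 FPKM against 1340.3 and 1502, and its epithelial markers 1499 against 472 and 556. Some results are also given without it.

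From E10.5 to E14.5, 6 of the 9 Sox genes fell, 1 rose and 2 passed no threshold. *Sox2*, *Sox5*, *Sox8*, *Sox9*, *Sox11* and *Sox13* fell, *Sox6* rose, and *Sox4* and *Sox12* did not change past the threshold. Of all genes tested, 7.97% fell and 13.6% rose in this comparison, so a fall was more common among the Sox genes than among genes at large. From E10.5 to E16.5, 5 of the 9 fell and *Sox6* again rose, against 15.4% of all genes falling and 19.4% rising. From E14.5 to E16.5, *Sox11* alone fell and none rose, against 5.47% falling and 6.26% rising. Scaled by library totals, rising genes were 39.9% of all genes called between the corneal stages, against 53.3% with TMM, and 7 of the 9 Sox genes fell by E16.5, *Sox12* and *Sox13* being added. With 1 sample left out at a time, 5 or 6 fell by E14.5 and 5 to 7 by E16.5, with 7 when E10.5 replicate 3 was left out. The median log2 fold change of the 9 genes was -1.59, -1.86 and -0.20 in the order given, where that of all genes tested was 0.01, 0.00 and -0.02. The first and second comparisons share the E10.5 samples.

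By adjusted p alone, 7, 9 and 3 of the 9 Sox genes passed in the same order. These counts stand beside 56.4%, 69.8% and 35.0% of all genes tested. By NOISeq, the criterion on FPKM used in the study's methods and recomputed here, 4, 7 and 1 of the 9 genes passed, of which 1, 1 and 0 were higher at the later stage. NOISeq passed 7.75%, 19.0% and 4.14% of all genes. *Sox6* passed as higher at both corneal stages and *Sox11* passed as lower in each of the 3 comparisons.

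**Figure D1:**
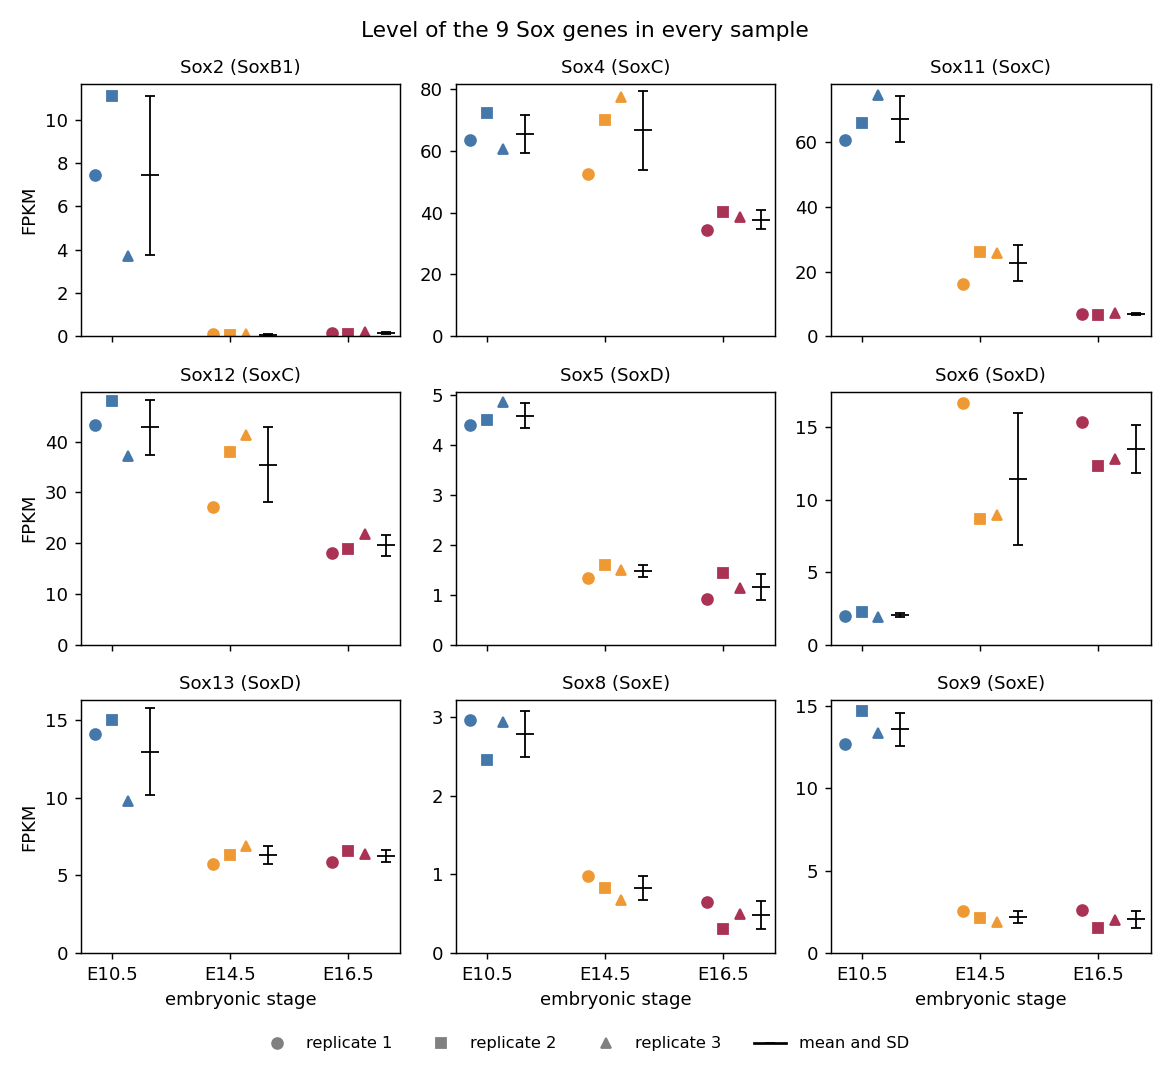
Level of each of the 9 Sox genes in FPKM (vertical axis, a separate linear scale from 0 in each panel) at the 3 stages. Points are single samples, with the marker giving the replicate number, and bars are the mean and SD of 3 samples. *Sox6* is higher in every corneal sample than in every E10.5 sample, *Sox4* overlaps between E10.5 and E14.5, and *Sox11* separates all 3 stages.

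**Figure D2:**
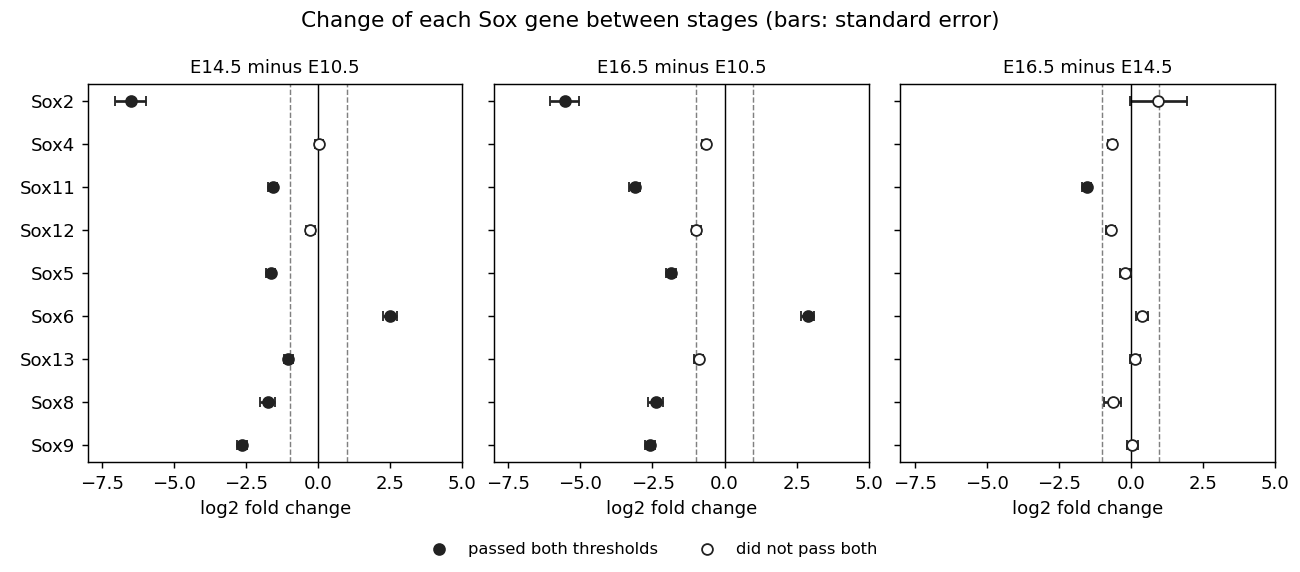
The log2 fold change of each Sox gene from edgeR (horizontal axis) for the 3 pairs of stages, with the standard error as the bar and dashed lines at the minimum change of 1. Filled points passed both thresholds, and *Sox6* is the single gene with filled points to the right of 0, for E14.5 and for E16.5 against E10.5.

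The SoxC genes *Sox4*, *Sox11* and *Sox12* were the most abundant of the 9 at E10.5. *Sox4*, an activator needed in heart, lymphocyte and neural progenitors, lies at chr13:28948919-28953699 (GRCm38, minus strand) in 1 exon. It stood at 63.5, 72.2 and 60.6 FPKM at E10.5, at 52.5, 70 and 77.5 in the E14.5 corneas and at 34.3, 40.3 and 38.7 in those of E16.5. The E10.5 and E14.5 samples overlapped, whereas all E16.5 samples lay below all others. Between E10.5 and E14.5 the log2 fold change of *Sox4* was 0.02 (SE 0.14, edgeR adjusted p = 0.932). Without E14.5 replicate 1, the lowest *Sox4* sample of that stage, this change was 0.17 (edgeR adjusted p = 0.183). With all samples, the change from E10.5 to E16.5 was -0.64 (SE 0.14, edgeR adjusted p = 0.00206) and that from E14.5 to E16.5 was -0.66 (SE 0.14, edgeR adjusted p = 0.00576). The last of these differences passed the p threshold, as did the one before it, but both were smaller than the minimum change.

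*Sox11*, required for closure of the optic fissure and for development of the anterior eye, lies at chr12:27334268-27342718 on the minus strand, also in 1 exon. Its level was 60.7, 65.9 and 74.7 FPKM at E10.5, 16.1, 25.9 and 25.6 in the E14.5 corneas and 6.95, 6.64 and 7.34 in those of E16.5. No sample of one stage overlapped with a sample of another. *Sox11* fell 2.97-fold in mean FPKM by E14.5 (log2 fold change -1.59, SE 0.17, edgeR adjusted p = 2.5e-05). It fell a further 3.23-fold to E16.5 (-1.53, SE 0.17, edgeR adjusted p = 4.0e-04), which made 9.62-fold over the whole interval (-3.12, SE 0.18, edgeR adjusted p = 2.0e-07). *Sox11* was the only one of the 9 genes that fell in both steps. Without E14.5 replicate 1, its lowest sample at that stage, the steps were -1.39 and -1.73.

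*Sox12*, the remaining SoxC gene, a weaker activator with milder loss-of-function effects, lies at chr2:152393611-152398046 on the minus strand in 1 exon. It was at 43.4, 48.0 and 37.2 FPKM at E10.5, 27.2, 37.9 and 41.3 in the E14.5 corneas and 18.0, 18.8 and 21.9 in those of E16.5. As for *Sox4*, the first 2 stages overlapped and E16.5 lay below both in every sample. By E14.5 *Sox12* had changed by -0.28 (SE 0.16, edgeR adjusted p = 0.146), and by -0.12 (edgeR adjusted p = 0.408) without E14.5 replicate 1. The change from E10.5 to E16.5 was -0.98 (SE 0.16, edgeR adjusted p = 2.2e-04), just short of the minimum, and under scaling by library totals it was -1.13 and passed. From E14.5 to E16.5 it was -0.70 (SE 0.16, edgeR adjusted p = 0.00694).

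The makeup of the SoxC total differed between stages. *Sox4* and *Sox11* held similar shares of the summed SoxC FPKM at E10.5, 37.3% ± 1.92 and 38.3% ± 4.33 (SD, n = 3). By E16.5 the share of *Sox4* was 58.7% ± 2.29 and that of *Sox11* was 10.9% ± 0.817. *Sox12* went from 24.4% ± 2.46 to 30.4% ± 1.84. The summed level itself was 175 ± 9.56 FPKM at E10.5, 125 ± 25.5 in the E14.5 corneas and 64.3 ± 4.53 in those of E16.5. At E14.5 the sum was 95.9 FPKM in replicate 1 against 134 and 144 in the others. These shares depend on transcript length, which was 2969 bases for *Sox4* in the files and 8451 for *Sox11*, while the GENCODE M21 transcript of *Sox4* has 4795 bases. By expected counts, *Sox11* held 59.7% of the SoxC total at E10.5 and 23.0% at E16.5, and *Sox4* 20.3% and 43.3%. The mean share of *Sox11* at E10.5 was thus the higher of the pair in both units. In FPKM this rested on replicate 3, where *Sox11* held 43.3% and *Sox4* 35.1%. In replicates 1 and 2 *Sox4* held more, 37.9% and 38.8% against 36.2% and 35.4% for *Sox11*. The size of the gap between the means depends on length, whereas the direction of the shift between stages does not.

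**Figure D3:**
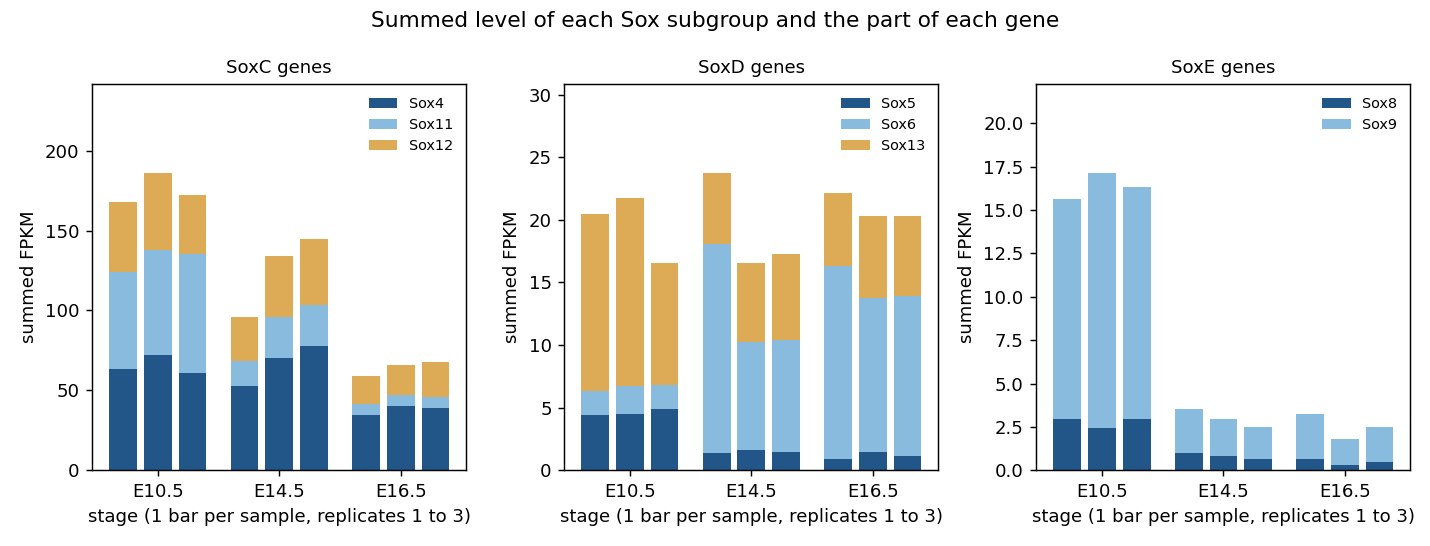
Summed FPKM (vertical axis from 0, a separate scale in each panel) of the SoxC, SoxD and SoxE genes in each of the 9 samples, 1 bar per sample, with the colours giving each gene. The SoxD bars in FPKM reach similar heights at the 3 stages while *Sox6* takes at most 11.7% of them at E10.5 and at least 60.5% at E16.5, and the SoxE bars are lower in every corneal sample than at E10.5.

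*Sox6* was the only one of the 9 Sox genes that rose. It is a SoxD gene that works with *Sox5* in cartilage and also acts in muscle and red blood cell development, and it spans chr7:115470872-116040776 on the minus strand with 16 exons in its longest transcript. It stood at 1.96, 2.22 and 1.93 FPKM at E10.5, 16.7, 8.64 and 8.95 in the E14.5 corneas and 15.4, 12.3 and 12.8 in those of E16.5. Every corneal sample was above every E10.5 sample, while the E14.5 and E16.5 samples overlapped. The mean FPKM was 5.62-fold higher at E14.5 (log2 fold change 2.48, SE 0.24, edgeR adjusted p = 1.2e-05) and 6.62-fold higher at E16.5 (2.88, SE 0.24, edgeR adjusted p = 1.7e-06).

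The E14.5 mean of *Sox6* carried the largest spread of the gene, 11.4 ± 4.58 FPKM (SD, n = 3), since replicate 1 was above every E16.5 sample and the other E14.5 samples were below every one. This is the sample with the higher keratocyte and epithelial marker sums, and the part of those cells in the *Sox6* level was not tested. Without it, the rise by E14.5 was 2.11 on the log2 scale (edgeR adjusted p = 2.3e-08). The change from E14.5 to E16.5 was 0.40 (SE 0.21, edgeR adjusted p = 0.165) with all samples and 0.77 (edgeR adjusted p = 7.7e-05) without that library, in both cases under the minimum change.

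*Sox5*, the SoxD partner of *Sox6*, went the other way. It spans chr6:143828425-144782287 on the minus strand with 15 exons, and lay at 4.4, 4.51 and 4.87 FPKM at E10.5, 1.34, 1.59 and 1.49 in the E14.5 corneas and 0.91, 1.44 and 1.13 in those of E16.5. The E10.5 samples were above all corneal samples, and the corneal stages overlapped. *Sox5* fell by 1.66 on the log2 scale to E14.5 (SE 0.17, edgeR adjusted p = 1.7e-05) and by 1.86 to E16.5 (SE 0.17, edgeR adjusted p = 3.5e-06). By NOISeq the fall of *Sox5* did not pass at E14.5 (probability 0.727) and passed at E16.5 (0.806). Between E14.5 and E16.5 the change was -0.20 (SE 0.18, edgeR adjusted p = 0.416).

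*Sox13*, the remaining SoxD gene, known from lymphocytes and blood vessels, lies at chr1:133382300-133424459 on the minus strand with 14 exons. It was at 14.1, 15.0 and 9.75 FPKM at E10.5, 5.72, 6.31 and 6.87 in the E14.5 corneas and 5.84, 6.57 and 6.35 in those of E16.5. All E10.5 samples were above all corneal samples. The change to E14.5, -1.05 (SE 0.16, edgeR adjusted p = 2.5e-04), passed the minimum narrowly. It was -0.98 without E14.5 replicate 1, -0.99 without E10.5 replicate 1 and -0.94 without E10.5 replicate 2, and did not pass in these fits. The change to E16.5 was -0.90 (SE 0.16, edgeR adjusted p = 3.8e-04) and that from E14.5 to E16.5 was 0.15 (SE 0.16, edgeR adjusted p = 0.506).

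The summed FPKM of the 3 SoxD genes was 19.6 ± 2.72 at E10.5, 19.2 ± 3.98 in the E14.5 corneas and 20.9 ± 1.08 in those of E16.5, means that differ by less than the largest SD among them. In expected counts, which are not scaled to length, the sum was 875 ± 95.7, 1166 ± 318 and 1298 ± 91.5, with every E16.5 sample above every E10.5 sample, so the similar heights hold for FPKM and not for counts. Within this sum, *Sox13* held 65.7% ± 5.84 at E10.5 and 30% ± 3.22 at E16.5. *Sox6* held 9.57%, 10.2% and 11.7% in the 3 samples of E10.5. By E14.5 it held 70.3%, 52.2% and 51.7%, a mean of 58.1% ± 10.6, and by E16.5 64.4% ± 4.65. *Sox5* went from 23.9% ± 4.82 to 5.59% ± 1.5. By expected counts, which favour long transcripts, *Sox6* held 18.0% at E10.5 and 79.0% at E16.5, the same direction.

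The SoxE genes *Sox8* and *Sox9* were lower in every corneal sample than in every E10.5 sample. *Sox9*, the regulator of cartilage formation and of the early neural crest, lies at chr11:112782210-112787757 on the plus strand with 3 exons. It stood at 12.7, 14.7 and 13.4 FPKM at E10.5, 2.57, 2.12 and 1.85 in the E14.5 corneas and 2.58, 1.52 and 2 in those of E16.5. The corneal stages overlapped fully. *Sox9* fell 6.24-fold in mean FPKM to E14.5 (log2 fold change -2.66, SE 0.17, edgeR adjusted p = 7.5e-07) and 6.69-fold to E16.5 (-2.60, SE 0.17, edgeR adjusted p = 4.2e-07). The change from E14.5 to E16.5 was 0.06 (SE 0.19, edgeR adjusted p = 0.832), and its sign differed between settings.

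*Sox8*, which overlaps in function with *Sox9* and *Sox10*, lies at chr17:25565893-25570686 on the minus strand with 3 exons. It was lower throughout, at 2.96, 2.45 and 2.94 FPKM at E10.5, 0.98, 0.83 and 0.67 in the E14.5 corneas and 0.65, 0.30 and 0.49 in those of E16.5. The E16.5 values rest on 17, 8 and 13 counts. *Sox8* fell by 1.76 on the log2 scale to E14.5 (SE 0.25, edgeR adjusted p = 2.0e-04) and by 2.39 to E16.5 (SE 0.27, edgeR adjusted p = 1.8e-05). By NOISeq *Sox8* passed at neither stage, with probabilities of 0.645 and 0.765. From E14.5 to E16.5 the change was -0.63 (SE 0.30, edgeR adjusted p = 0.135), with every E16.5 sample below every E14.5 sample. *Sox9* made up 82.9% ± 2.44 of the summed SoxE level without *Sox10* at E10.5, 72.6% ± 0.787 in the E14.5 corneas and 81.2% ± 1.99 in those of E16.5.

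*Sox10*, the SoxE gene left out of the list, was at 12.5, 18.1 and 12.3 FPKM at E10.5, about the level of *Sox9* there. It averaged 3.84 ± 1.72 in the E14.5 corneas and 2.40 ± 0.585 in those of E16.5. The log2 fold changes of *Sox10* from E10.5 were -1.91 and -2.42, beside -2.66 and -2.60 for *Sox9*. The 6 glial crest markers, which include *Sox10*, summed to 58.4 to 76.4 FPKM at E10.5, 20.4 to 28.5 in the E14.5 corneas and 31.6 to 37.9 in those of E16.5, with 4 and 3 of the 6 falling in the respective corneal stages and 1, *Erbb3*, rising by E16.5. *Erbb3*, named after its values were seen, was at 5.7 ± 0.896, 11.1 ± 3.79 and 23 ± 3.96 FPKM at the 3 stages and makes up most of the E16.5 sum. The part of glial cells in the levels of *Sox8* and *Sox9* was not tested.

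*Sox2*, the SoxB1 gene, was present at E10.5 and nearly absent from the corneas. It lies at chr3:34649995-34652461 on the plus strand in 1 exon. Its level was 7.46, 11.1 and 3.73 FPKM at E10.5, 0.09, 0.05 and 0.09 in the E14.5 corneas and 0.14, 0.09 and 0.18 in those of E16.5. In expected counts these were 165, 248 and 81 at E10.5, 2, 1 and 2 in the E14.5 corneas and 3, 2 and 4 in those of E16.5. Even the lowest E10.5 sample was well above every corneal sample. The log2 fold change was -6.51 to E14.5 (SE 0.54, edgeR adjusted p = 4.8e-06) and -5.55 to E16.5 (SE 0.50, edgeR adjusted p = 3.0e-06).

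With so few corneal counts the size of the fall of *Sox2* is loosely bounded. The summed count of 494 at E10.5 against 5 at E14.5 gave a ratio of 97.5 once library totals were taken into account, with an exact 95% counting interval of 41.5 to 302. Against 9 counts at E16.5 the ratio was 54.1 with an interval of 28.3 to 119. These intervals cover counting error only. Between E14.5 and E16.5 the change was 0.96 (SE 0.98, edgeR adjusted p = 0.48), and a difference was not detectable at this depth.

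*Sox2* also varied most among the E10.5 samples of the 9 genes, with a coefficient of variation of 49.6% and a highest value 2.98 times the lowest. Replicate 2 was highest and replicate 3 lowest. Its SoxB1 relatives *Sox1* and *Sox3* followed the same order, at 1.23, 2.41 and 0.31 FPKM for *Sox1* and 3.58, 6.35 and 1.14 for *Sox3*. The optic cup markers *Rax*, *Six3*, *Six6* and *Lhx2* summed to 23.3, 26.3 and 7.26 FPKM in the same samples and the 8 neuron markers to 171, 178 and 109. Other lists were lowest in replicate 3 as well, with lens markers at 9.16, 7.4 and 2.32 FPKM, vascular markers at 149, 140.5 and 95.8, glial crest markers at 63.3, 76.4 and 58.4 and red blood cell markers at 5236, 5922 and 3906. *Sox4*, *Sox6*, *Sox12* and *Sox13* were also lowest in that sample, whereas *Sox5* and *Sox11* were highest there. The crest mesenchyme markers, at 258, 249 and 293 FPKM, and the epithelial markers, at 22.9, 31.9 and 35, were highest in replicate 3.

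In the corneas, the optic cup markers summed to 2.28 to 6 FPKM, mostly *Six3*, and the neuron markers to 1.23 to 4.37 FPKM, led by *Dcx*. *Neurod1* was listed at 0 in every E14.5 sample. Of the neuron markers tested, 6 and 7 of 7 fell in the corneas, and of the optic cup markers 2 of 3 fell at either stage. The part of these or other cells in the *Sox2* level at E10.5 was not tested. Without E10.5 replicate 3 the change of *Sox2* to E14.5 was -6.83. *Sox2ot*, the noncoding gene that contains *Sox2* on the same strand, was at 0.68, 0.98 and 0.19 FPKM at E10.5, 0.91, 0.23 and 0.32 in the E14.5 corneas and 0.28, 0.36 and 0.26 in those of E16.5, values that overlapped between stages.

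**Figure D4:**
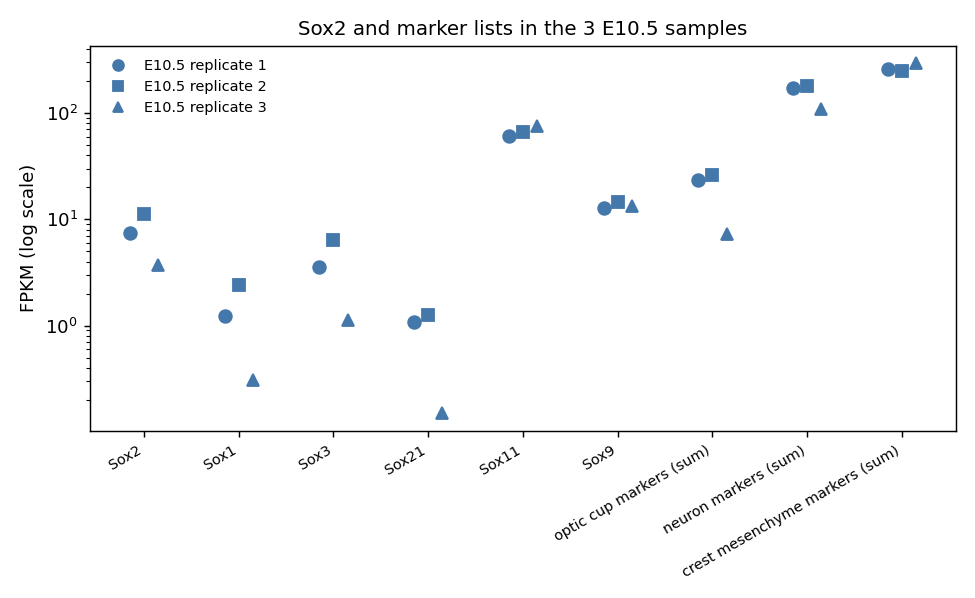
FPKM (vertical axis, log scale) of *Sox2*, *Sox1*, *Sox3*, *Sox21*, *Sox11* and *Sox9* and summed FPKM of 3 marker lists in the 3 E10.5 samples, with the marker giving the replicate. Replicate 3 is lowest for *Sox2*, the other SoxB genes, the optic cup list (7.26 FPKM) and the neuron list (109 FPKM), but not for *Sox11*, *Sox9* or the crest mesenchyme list. *Sox4*, *Sox6*, *Sox12* and *Sox13*, not plotted, were also lowest in replicate 3.

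The order of the 9 levels was different at each end of the series. At E10.5, *Sox11* and *Sox4* were highest and overlapped, followed by *Sox12*. *Sox9*, *Sox13*, *Sox2* and *Sox5* came next, each overlapping with its neighbour in the order, and *Sox8* and *Sox6* were lowest. At E14.5 the order was *Sox4*, *Sox12*, *Sox11*, *Sox6*, *Sox13*, *Sox9*, *Sox5*, *Sox8* and *Sox2*, with overlap between *Sox11* and *Sox6*. At E16.5 *Sox6* stood above *Sox11*, and each gene of the order was above the next in all 3 samples. The place of *Sox4* rests on the transcript length used for it. *Sox6* went from the last place at E10.5 to the one behind *Sox4* and *Sox12* at E16.5. The summed FPKM of all 9 genes was 219 ± 15.0, 147 ± 21.3 and 87.9 ± 3.08 at the 3 stages.

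Other cell types differed between the stages as well. From E10.5 to the corneas all 6 epithelial markers and all 3 keratocyte markers rose at both stages, and the epithelial list summed to 22.9 to 35.0 FPKM at E10.5 and to 3312 to 4617 at E16.5. Of the 5 vascular markers, 4 fell in each comparison. Of the 6 red blood cell markers, 4 and 5 fell by E14.5 and E16.5. *Myod1*, *Myog* and *Myf5*, which define skeletal muscle, were listed at 0 in every corneal sample, and 4 of 5 muscle markers fell at both stages while *Chrna1* rose, from 1.3 ± 0.214 to 3.89 ± 1.22 and 6.61 ± 0.115 FPKM. Among pigment cell markers 1 of 5 rose by E14.5 and 2 of 5 fell by E16.5, and among lens markers 2 of 3 tested rose and 1 fell at either stage. The crest mesenchyme markers summed to 282 to 351 FPKM at E14.5 and 262 to 319 at E16.5. The part of these cell types in the Sox levels was not tested.

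Of the 11 other Sox genes of the family, *Sry* was in no sample and *Sox14* was too low to test. Among the 9 tested, 6 fell and 1 rose from E10.5 to E14.5, 6 fell and 2 rose to E16.5, and 3 fell and 1 rose between the corneal stages. Their median log2 fold changes were -1.49, -2.56 and -0.51. *Sox1* was listed at 0 in every corneal sample and *Sox3* averaged 0.0167 FPKM at both corneal stages. The SoxF genes of blood vessels were lowest at E16.5, with *Sox18* at 13.7 ± 3.09, 4.92 ± 1.11 and 0.607 ± 0.398 FPKM, *Sox7* at 4.01 ± 1.62, 2.88 ± 1.02 and 0.613 ± 0.15 and *Sox17* at 2.44, 0.947 and 0.130. *Sox15* and *Sox30* were the genes that rose. *Sox15* stood at 5.32 ± 1.5 FPKM at E16.5 against 0.300 ± 0.436 at E14.5 (log2 fold change 4.26, SE 0.60, edgeR adjusted p = 8.9e-04). *Sox30*, named because it rose, averaged 0.0967 FPKM at E10.5, 0.713 in the E14.5 corneas and 0.413 in those of E16.5, and its log2 fold changes from E10.5 were 2.78 (SE 0.52, edgeR adjusted p = 0.00103) and 2.16 (SE 0.56, edgeR adjusted p = 0.00501). *Sox30* rested on 3, 2 and 3 counts at E10.5 and passed by NOISeq at neither corneal stage (probabilities 0.45 and 0.356). *Sox21* was the remaining gene.

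Sox9, Sox5 and Sox6 proteins are known to act together on genes of the cartilage matrix, and 13 such genes were examined. *Acan*, *Matn1* and *Comp* were too low to test. Among the other 10, 4 rose and 3 fell from E10.5 to E14.5, 7 rose and 3 fell to E16.5, and 4 rose and 1 fell between the corneal stages. *Col2a1*, the main collagen of cartilage, was at 151 ± 32.0, 44.4 ± 9.98 and 64.0 ± 16.1 FPKM at the 3 stages and fell by 1.77 on the log2 scale to E14.5 (SE 0.24, edgeR adjusted p = 1.3e-04). *Col11a1*, which joins the same fibrils, rose instead, from 16.7 ± 3.08 to 36.9 ± 5.18 and 116 ± 19.7 FPKM. *Col9a3* rose from 2.92 ± 0.309 to 19.4 ± 17.5 and 99.8 ± 15.3 FPKM, with 39.3 FPKM in E14.5 replicate 1 against 6.61 and 12.2. *Col2a1* was thus highest at E10.5 like *Sox9*, and *Col11a1* and *Col9a3* were highest at E16.5.

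The 4 Tcf and Lef genes, which encode HMG box proteins of the Wnt pathway outside the Sox family, were examined as well. None passed from E10.5 to E14.5, and 1 rose to E16.5. That gene was *Lef1*, at 9.59 ± 0.215, 18.2 ± 2.10 and 18.4 ± 0.961 FPKM. *Tcf7l1* averaged 23.9, 28.3 and 27.2 FPKM and *Tcf7l2* 8.14, 7.68 and 8.68, and neither passed in any comparison. *Tcf7* fell by 1.14 on the log2 scale from E14.5 to E16.5.

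For each Sox gene that reached a mean of 5 FPKM at some stage, the genes with the most similar course over the 9 samples were sought among 10924 genes. Likeness was the root mean square difference of log2(FPKM + 1) after each gene's own mean was subtracted, so that smaller is closer. Closest to *Sox6* were *Cgn*, a tight junction gene (0.0987), and *Pdpn* (0.125). *Cgn* went from 2.99 to 14.9 and 18.9 FPKM and *Pdpn* from 11.7 to 48.3 and 51.6. Closest to *Sox9* were *Bmp4*, a growth factor gene (0.123), and *Mapk12* (0.15), with *Bmp4* at 16.8, 2.44 and 2.86 FPKM.

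The replication gene *Mcm10* (0.149) and *Pclaf* (0.16) were closest to *Sox11*, with *Mcm10* at 24.4, 9.15 and 2.46 FPKM. Closest to *Sox2* were the neuronal genes *Insm1* (0.129), at 6.17, 0.0433 and 0.0233 FPKM, and *Elavl3* (0.159), which is also on the neuron list. *Sox4* was followed most closely by *Pcyt1b* (0.0811) and *Gna12* (0.0884), *Sox12* by *Shroom3* (0.0806) and *E2f8* (0.088), and *Sox13* by *Irs1* (0.0767) and *Eml1* (0.0972). Small differences are easier to reach for genes that moved little, such as *Sox4*, *Sox12* and *Sox13*, and the values describe these 9 samples.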

How the data were processed

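RNA was measured in 9 bulk samples, 3 at each stage, grouped by the stage in the labels. The authors filtered reads, mapped them with Bowtie2 to reference genes and with HISAT to GRCm38, and quantified genes with RSEM, and the versions are not given in the sources used here. Each deposited sample holds expected counts, which are estimates and not normalized, and FPKM values deposited beside them, scaled by the authors to transcript length and mapped fragments. Genes absent from a sample were taken as 0. Whether counting used strand is not given in the sources used here, so genes that overlap on either strand may share reads.

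Symbols and positions came from RefSeq for GRCm38.p6 (19312 of 19369 identifiers matched), and transcripts from GENCODE M21. Expected counts were rounded and tested with edgeR 4.0.16 in R 4.3.3 (filterByExpr by stage, TMM, one quasi-likelihood model of all 9 samples). FPKM was summarized with Python 3.11.15, numpy 2.4.6, pandas 2.3.3 and scipy 1.17.1. The script was tested on simulated data. Alternatives were library totals, DESeq2 1.42.0, no filter, only the 6 samples compared, limma 3.58.1 on log2(FPKM + 1) or log2(FPKM + 0.1), NOISeq (probability of at least 0.8, zeros set to 0.01, numba 0.67.0), no minimum change, a replicate block and each sample left out. The NOISeq version was picked in earlier work for its closeness to the published values.

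All 9 members were named. Of the other Sox genes those with a mean of at least 1 FPKM were given values, of the cartilage and the Tcf and Lef lists the 3 highest, and the 2 genes most like each member that reached 5 FPKM. A few further genes were named after their values were seen, *Tcf7*, *Sox30*, *Chrna1* and the markers given at 0 among them. Some markers of the lists are not reported here. Members, lists and tests were chosen with earlier results of these data known. At totals of 8745161 to 9069023 counts, counting error is largest for *Sox2* and *Sox8*. It also matters for *Sox5* and *Sox9*, whose lowest counts, at E16.5, were 56.6 and 56.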

Additional observations from a re-analysis of the deposited data

How the results depend on the processing

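Replicate numbers are not described as pairing the samples. Deviations from the stage means correlated at -0.0341 on average (-0.256 to 0.216) over 9 pairs with the same number. Over 18 pairs with different numbers the average was 0.0178 (-0.168 to 0.152). Centring on the stage means ties the 2 averages together, so they cannot decide whether samples were paired. With the replicate block, 1 Sox gene rose and 6 fell by E14.5, 1 rose and 5 fell by E16.5, and 0 rose and 1 fell between the corneal stages, as without it, and 3167, 5140 and 1722 genes were called in all. Of the log2 fold changes of single Sox genes under all alternatives, 470 kept direction and side of the threshold, 9 no longer passed, 16 passed anew and 17 changed sign, all 17 of changes that had not passed. Falling Sox genes numbered 3 by NOISeq at E14.5 (6 by edgeR), and with no minimum change 8 by E16.5 and 3 between the corneal stages. Leaving out 1 sample gave 5 to 6, 5 to 7 and 1 falling genes in the 3 comparisons. *Sox13* at E14.5 also failed with limma (-0.92) and NOISeq (-1.04). NOISeq also failed *Sox5* (-1.64) and *Sox8* (-1.75) at E14.5 and *Sox8* (-2.54) at E16.5. At E16.5 *Sox13* passed with library totals (-1.06), without E10.5 replicate 3 (-1.08) with limma on log2(FPKM + 0.1) (-1.02) and by NOISeq (-1.05), and *Sox12* with library totals, limma (-1.09), NOISeq (-1.13) and without E10.5 replicate 3 (-1.08) or E16.5 replicate 3 (-1.07).

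Signs turned for *Sox4* from E10.5 to E14.5 (0.02) with DESeq2 (-0.003), without E10.5 replicate 1 (-0.01) or 3 (-0.04) and without E14.5 replicate 2 (-0.01) or 3 (-0.13), with a highest value of 0.17 when 1 sample was left out. They turned for *Sox13* from E14.5 to E16.5 (0.15) with library totals, every limma version and NOISeq (-0.01 each). For *Sox9* over the same step (0.06) they turned with library totals and NOISeq (-0.10 each), limma with 1 or without a filter (-0.08 each), limma with 0.1 (-0.11), without E14.5 replicate 3 (-0.03) and without E16.5 replicate 1 (-0.14), the highest with 1 sample left out being 0.22. All genes called numbered 3191, 5144 and 1732. From E10.5 to E14.5 they were 2062 with limma, 2045 with limma and no filter, 1476 by NOISeq and 8328 with no minimum change, from E10.5 to E16.5 they were 10316 with no minimum change, and from E14.5 to E16.5 they were 1028, 1010, 782 and 5164 in the order of the first list. Leaving out 1 sample gave 2985 to 3450, 5115 to 5321 and 1322 to 2363. Counts in place of FPKM moved 22 of 96 shares and sums past the replicate spread, and TMM scaling moved the E16.5 means of *Sox11* to 7.5 and *Sox13* to 6.73 FPKM. The causes were not tested. Corneal levels of *Sox2* rest on 1 to 4 counts a sample, and its change to E14.5 was -2.87 with limma on log2(FPKM + 1) against -6.51.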
